A study of Mus musculus with 12 samples.

Results

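Interferon-stimulated genes were followed through 4 groups of mouse kidneys that differed in Toll-like receptor 4 (TLR4) and in ischemia. The genes are 39 listed members that type I or type II interferon is known to induce, and a probe set counted as a member when its annotation named exactly 1 gene and that gene was on the list. This gave 58 of the 45101 probe sets on the array, for 37 of the 39 genes and of 18194 genes measured in this way. Of these probe sets 49 passed a filter on low signals, with at least 1 for each of the 37 genes. The probe set for Isg15, a ubiquitin-like modifier, also names another gene and was left out by the rule, and Ifi44 is not analysed here.

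The first group held ischemic kidneys of TLR4 null mice of the substrain C57BL/10ScNJ, and the second held ischemic kidneys of wild-type C57BL/10 mice. The remaining groups were sham-operated kidneys of TLR4 null and of wild-type mice. Each group had 3 arrays, which the labels call biological replicates. All 12 mice were males obtained at 8 weeks of age, had the right kidney removed under isoflurane and received buprenorphine. In the ischemic groups the left renal pedicle was clamped for 23 min and the kidney was collected after 4 h of reperfusion, whereas in sham mice the clip was only laid beneath the pedicle. The null mice are a substrain and not littermates of the wild type, so loss of TLR4 and other differences between these mice cannot be told apart. The labels give no hybridisation batch, and a batch effect was not tested.

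Interferons are secreted proteins that warn cells of infection. Type I interferon acts through its receptor and the kinases JAK1 and TYK2 on a complex that holds STAT2 and IRF9 and binds the interferon-stimulated response element (ISRE) in promoters. Type II interferon reaches its genes through the gamma-activated site (GAS). TLR4 can start type I interferon production through the adaptor TRIF, the kinase TBK1 and the factor IRF3. The induced genes encode sensors of viral RNA, proteins that block viral replication, GTPases that attack vacuoles of intracellular pathogens, and the immunoproteasome.

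Promoter stretches of 6 members are shown because they carry the elements through which interferon signals reach these genes. They come from RefSeq (build GRCm38.p6), end before the gene's start and are written 5′ to 3′ on the gene's strand. Capitals mark the ISRE core, searched on both strands as a pair of GAAA blocks with any 2 bases between them, or the GAS, searched as TTCNNNGAA. These motifs overlapped in none of the 6 stretches. The Rsad2 stretch is chr12:26456533-26456602 (minus strand) and the Gbp2 stretch is chr3:142620574-142620643 (plus strand). The Ifit1 stretch is chr19:34640755-34640843 (plus strand), with a pair of ISRE cores, and the Igtp stretch is chr11:58199481-58199555 (plus strand), with both elements. The Irf1 stretch is chr11:53769894-53769962 (plus strand) and the Psmb8 stretch is chr17:34198068-34198136 (plus strand), each with a GAS.
Rsad2: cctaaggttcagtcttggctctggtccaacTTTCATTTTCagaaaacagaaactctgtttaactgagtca
Gbp2: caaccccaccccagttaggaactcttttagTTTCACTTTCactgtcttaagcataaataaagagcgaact
Ifit1: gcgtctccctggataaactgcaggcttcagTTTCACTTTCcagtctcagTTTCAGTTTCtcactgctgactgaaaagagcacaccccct
Igtp: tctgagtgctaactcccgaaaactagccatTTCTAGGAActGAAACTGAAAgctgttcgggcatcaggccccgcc
Irf1: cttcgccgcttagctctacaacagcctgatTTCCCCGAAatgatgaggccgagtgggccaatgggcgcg
Psmb8: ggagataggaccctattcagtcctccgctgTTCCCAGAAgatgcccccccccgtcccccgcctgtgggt

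Over windows from 250 bases before to 50 after the start, the ISRE core was found in 13 of the 30 measured members with a RefSeq promoter (43.3%), and in 3.99% of 27025 genes. The GAS letters were found in 9 of the 30 (30.0%) and in 9.55% of all genes. A match describes the letters and is no evidence of binding, and a window without them says nothing about the factor.

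Values are MAS5 signals on a linear scale, and differences are of log2(signal + 15), which understates the change of dim genes. They are given ± SE from limma with 3 arrays per group and p adjusted over all 14322 genes tested, and a gene is said to have passed at an adjusted p under 0.05. The medians of the 12 arrays ran from 61.2 to 77.4. On the Tlr4 probe set with the largest genotype difference, the 6 null arrays had 0.901 to 3.38 and the 6 wild-type arrays 65.6 to 120.4. On the brighter probe set, which stood for the gene, the null arrays had 6.33 to 60.4 and the wild-type arrays 72.9 to 135, a difference of -1.11 ± 0.32 (adjusted p = 0.0964) that did not pass. The positions of these probe sets relative to the deletion were not used here. Markers of proximal tubule, loop and collecting duct were abundant on all 12 arrays, with summed signals of at least 26627 and 29119.

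Interferon-stimulated genes were lower in TLR4 null than in wild-type kidneys. Averaged over ischemic and sham kidneys, 36 of 37 members had a lower mean in TLR4 null mice, and 16 passed the test, all of them lower. Of all genes 1.49% passed as lower and 49.91% had a lower mean. The median difference was -0.48 for the members and 0.00 for all genes. For 10 of 37 members (27.0%) every one of the 6 null arrays lay below every one of the 6 wild-type arrays, against 0.587% of all genes. The members were chosen with earlier results of these data known, so the contrast with all genes is no independent test. In whole kidney, fewer cells of a type and less RNA per cell cannot be told apart.

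**Figure D1:**
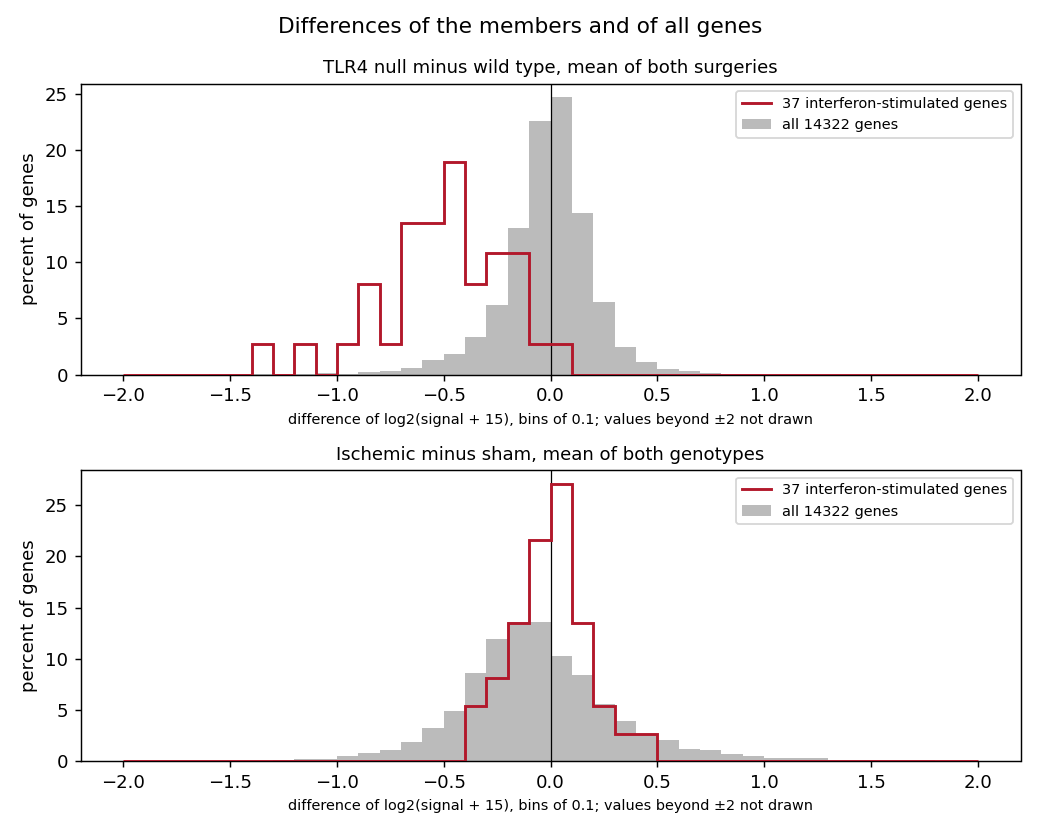
Share of genes (percent) in bins of 0.1 of the difference of log2(signal + 15), for the 37 interferon-stimulated genes (red outline) and all 14322 genes (grey), with TLR4 null minus wild type above and ischemic minus sham below. The members lie left of the other genes in the genotype comparison, with a median of -0.48 against 0.00, and around 0 in the ischemia comparison, with a median of 0.01.

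In ischemic kidneys alone, 35 of 37 members had a lower mean in TLR4 null mice, with a median difference of -0.53 against 0.01 for all genes. Here 7 members passed as lower, Iigp1, Rsad2, Igtp, Xaf1, Oasl2, Ifih1 and Ifitm3, and 0.517% of all genes did. All 3 null arrays lay below all 3 wild-type arrays for 22 of 37 members (59.5%), against 7.63% of all genes. The count of 7 rested on single arrays. It was 0 without wild-type ischemic replicate 3 or without TLR4 null ischemic replicate 1, and 1 without TLR4 null ischemic replicate 2. It was 3 without wild-type ischemic replicate 2, 4 without wild-type ischemic replicate 1, wild-type sham replicate 1 or TLR4 null sham replicate 3, and 12 without TLR4 null ischemic replicate 3.

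In sham kidneys 33 of 37 members had a lower mean in TLR4 null mice, with a median of -0.38 against -0.01 for all genes. None of the 37 passed the limma test, while 0.314% of all genes passed in either direction. At an unadjusted p under 0.05 there were 16 of 37 members (43.2%), against 9.35% of all genes. All 3 null arrays lay below all 3 wild-type arrays for 19 of 37 members (51.4%), against 8.63% of all genes. The sham count was 1 without wild-type ischemic replicate 3, TLR4 null ischemic replicate 2 or TLR4 null ischemic replicate 3. The difference was thus present in the means of kidneys that had not been clamped, and the ischemic, sham and averaged comparisons use the same arrays.

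**Figure D2:**
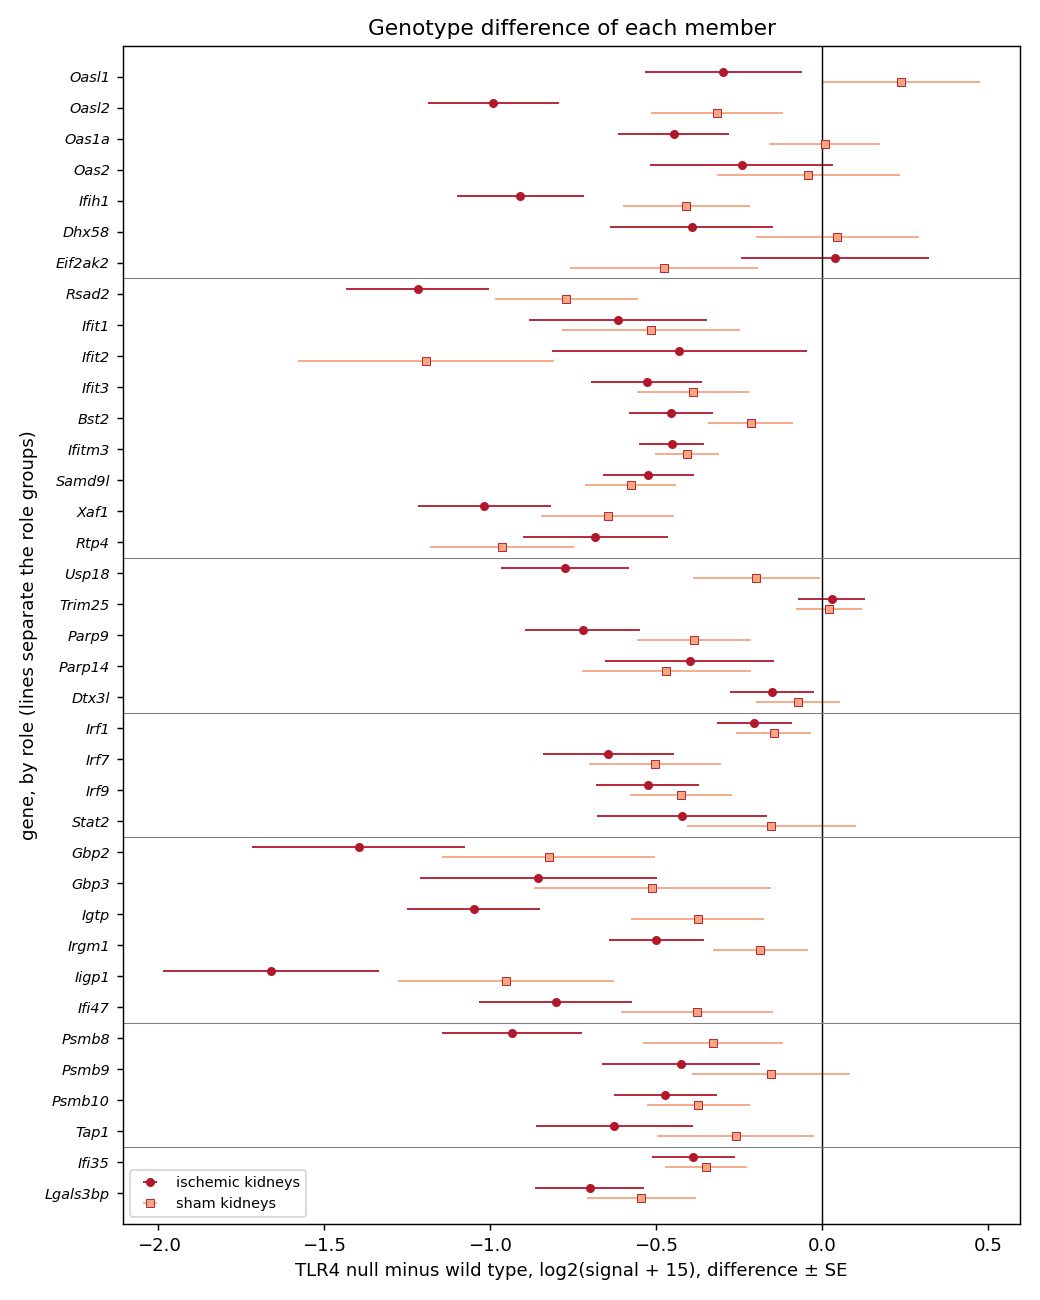
Difference of log2(signal + 15), TLR4 null minus wild type, ± SE for each of the 37 interferon-stimulated genes in ischemic (circles) and sham kidneys (squares), grouped by role. Most points of both surgeries lie left of 0, 35 of 37 in ischemic and 33 of 37 in sham kidneys, and Iigp1 reaches -1.66 in ischemic kidneys.

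The antiviral effectors held the most genes that passed. All 9 measured had a lower mean in null mice, 5 passed in the averaged comparison and the median difference was -0.56. Rsad2 encodes viperin, a membrane enzyme that limits viral replication. It had signals of 359.5, 328 and 662 in TLR4 null ischemic against 854, 903 and 1360.3 in wild-type ischemic kidneys, and 499, 510.2 and 601 in TLR4 null sham against 889, 1014 and 872 in wild-type sham kidneys. The ranges of the genotypes did not overlap in either surgery, and the averaged difference was -0.99 ± 0.15 (adjusted p = 0.0035). Its 3 probe sets were all lower in null mice. Xaf1, which encodes a partner of the apoptosis inhibitor XIAP, had 157, 169 and 184 in TLR4 null ischemic against 259, 336 and 532 in wild-type ischemic kidneys, and 185, 150.1 and 207 in TLR4 null sham against 269, 321 and 279 in wild-type sham kidneys. Its averaged difference was -0.83 ± 0.14 (adjusted p = 0.00712), again without overlap, and its dimmer second probe set went the other way by 0.22. Rtp4, an interferon-induced chaperone of membrane receptors, had 148, 219 and 243 in TLR4 null ischemic against 264, 286 and 472 in wild-type ischemic kidneys, and 168, 124 and 177 in TLR4 null sham against 271, 346 and 336 in wild-type sham kidneys. The difference was -0.82 ± 0.15 (adjusted p = 0.0118), and all 6 null values lay below all 6 wild-type values.

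Ifitm3 encodes a membrane protein that blocks the entry of viruses. Its signals were 1998, 2339 and 2049 in TLR4 null ischemic against 2671, 2823 and 3281 in wild-type ischemic kidneys, and 2020.1, 1680.3 and 1940.2 in TLR4 null sham against 2483, 2538 and 2452 in wild-type sham kidneys. The spread within groups was small, all null arrays lay below all wild-type arrays, and the difference of -0.43 ± 0.07 (adjusted p = 0.00456) passed. Samd9l, an interferon-induced inhibitor of viral replication and cell growth, had 1271, 936 and 1319.9 in TLR4 null ischemic against 1709, 1691 and 1632 in wild-type ischemic kidneys, and 1243, 1636 and 1373 in TLR4 null sham against 2521, 1889 and 1968 in wild-type sham kidneys. Its difference was -0.55 ± 0.10 (adjusted p = 0.00936), with no overlap within either surgery. The other 4 effectors did not pass. Ifit1 and Ifit2 bind foreign RNA, and their differences were -0.56 ± 0.19 (adjusted p = 0.171) and -0.81 ± 0.27 (adjusted p = 0.17). Ifit3, whose near-identical copy could share its probes, averaged 332 ± 45.3 in TLR4 null and 464 ± 81.6 in wild-type kidneys (SD, n = 6 each), a difference of -0.46 ± 0.12 (adjusted p = 0.0634). Bst2, the tethering factor tetherin, averaged 200.4 ± 20.6 in TLR4 null and 256 ± 20.4 in wild-type kidneys, a difference of -0.34 ± 0.09 (adjusted p = 0.0763).

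**Figure D3:**
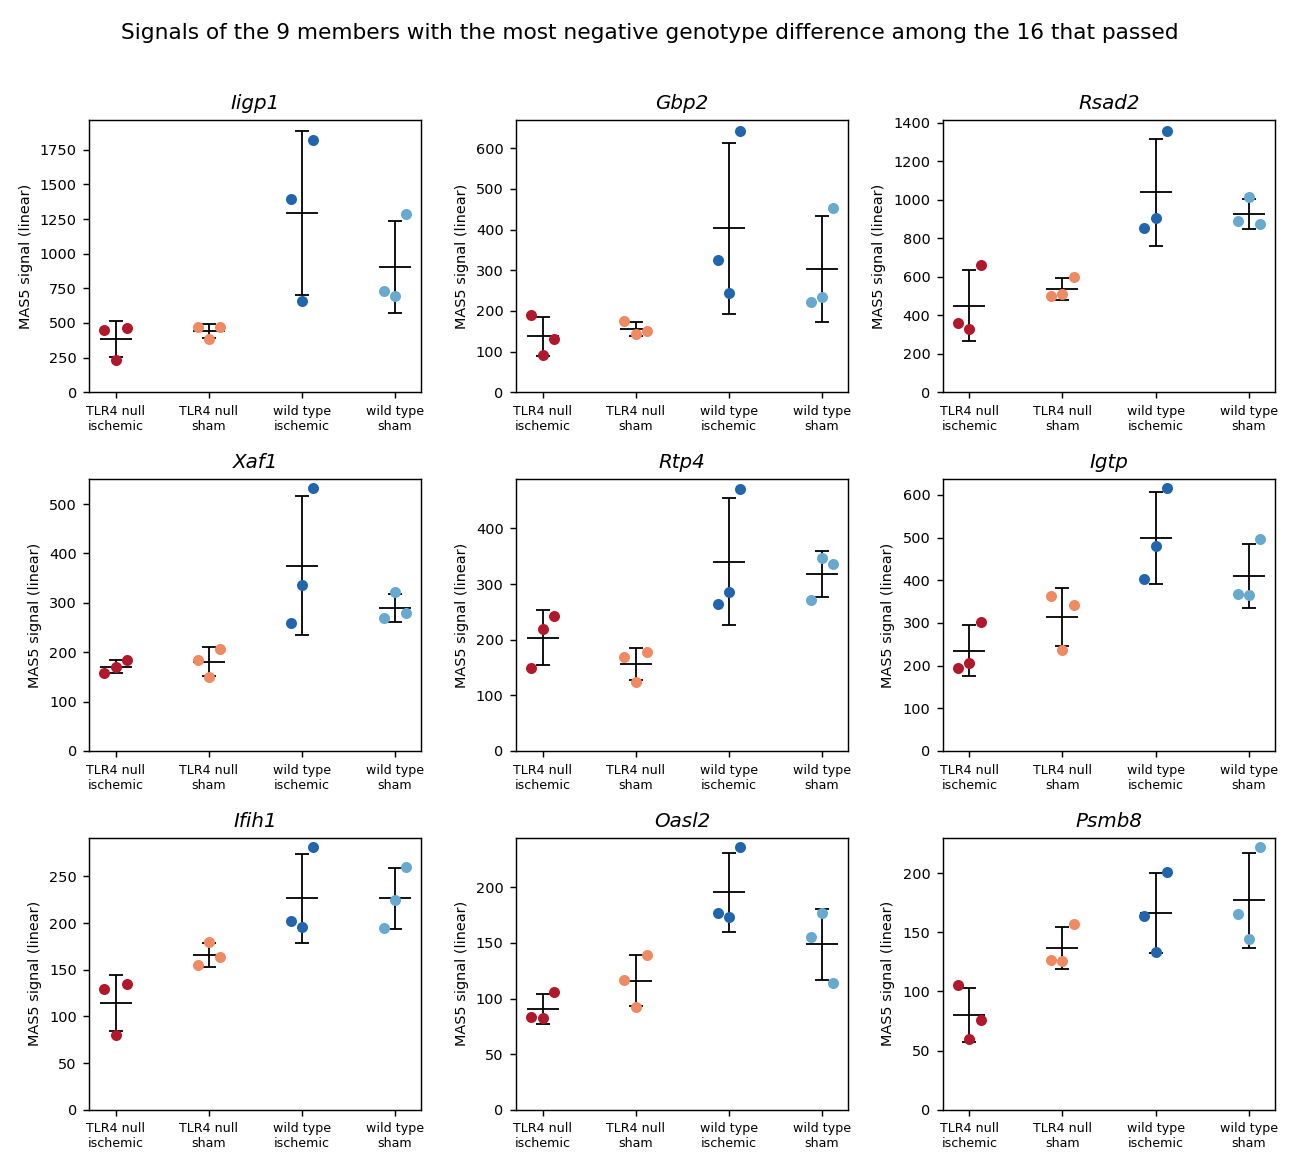
MAS5 signal (linear scale from 0) of the 9 genes with the most negative averaged genotype difference among the 16 that passed, 1 point per array with the mean ± SD of 3 arrays, in TLR4 null ischemic, TLR4 null sham, wild-type ischemic and wild-type sham kidneys. For Rsad2 the null arrays lie between 328 and 662 and the wild-type arrays between 854 and 1360.3, while wild-type ischemic replicate 3 is the highest array for 8 of the 9 genes.

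All 6 interferon-induced GTPases had a lower mean in null mice in each surgery, and 3 passed in the averaged comparison, with a median of -0.70. These proteins coat and break the vacuoles in which bacteria and parasites live. Iigp1, an immunity-related GTPase, had 449, 235 and 463 in TLR4 null ischemic against 1398, 658 and 1824 in wild-type ischemic kidneys, and 473, 383 and 472 in TLR4 null sham against 729.9, 692 and 1288 in wild-type sham kidneys. The genotypes did not overlap, and the difference of -1.31 ± 0.23 (adjusted p = 0.00897) was the most negative of the 37. Wild-type ischemic kidneys were also the most variable, with the lowest at 658 and the highest at 1824. Gbp2, a guanylate-binding protein, had 189, 92.1 and 130.2 in TLR4 null ischemic against 325, 244 and 642 in wild-type ischemic kidneys, and 176, 144 and 149 in TLR4 null sham against 223, 233 and 454 in wild-type sham kidneys. All null values were below all wild-type values, with a difference of -1.11 ± 0.23 (adjusted p = 0.0188). Igtp, known as Irgm3, had 194, 206 and 303 in TLR4 null ischemic against 402, 481 and 616 in wild-type ischemic kidneys, and 363, 238 and 342 in TLR4 null sham against 367, 365 and 496 in wild-type sham kidneys. Its difference was -0.71 ± 0.14 (adjusted p = 0.0171) averaged and -1.05 ± 0.20 (adjusted p = 0.0343) in ischemic kidneys. Gbp3, Irgm1 and Ifi47 did not pass, with differences of -0.68 ± 0.25 (adjusted p = 0.228), -0.34 ± 0.10 (adjusted p = 0.11) and -0.59 ± 0.16 (adjusted p = 0.0829).

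Among 7 sensors of double-stranded RNA and their relatives, all had a lower mean in null mice and 2 passed, with a median of -0.22. Ifih1 encodes the cytosolic sensor MDA5. Its signals were 129.8, 79.9 and 134 in TLR4 null ischemic against 202, 196 and 281 in wild-type ischemic kidneys, and 155, 180.1 and 163 in TLR4 null sham against 195, 225 and 260.0 in wild-type sham kidneys. The null arrays all lay below the wild-type arrays, and the difference was -0.66 ± 0.14 (adjusted p = 0.0194). Oasl2, an oligoadenylate synthetase-like protein, had 83.2, 82.4 and 106 in TLR4 null ischemic against 177, 174 and 237 in wild-type ischemic kidneys, and 117, 92.7 and 139 in TLR4 null sham against 155, 177 and 114 in wild-type sham kidneys. The ischemic groups did not overlap and the sham groups did, and the averaged difference was -0.65 ± 0.14 (adjusted p = 0.0255). Oas1a makes the second messenger that activates RNase L and belongs to a family of close copies. It had 189, 188 and 293 in TLR4 null ischemic against 302, 253 and 366 in wild-type ischemic kidneys, and 309, 289.6 and 274 in TLR4 null sham against 269, 285 and 314 in wild-type sham kidneys. Its ranges overlapped in both surgeries, and -0.22 ± 0.12 (adjusted p = 0.463) did not pass. The other 4 were flatter. Oasl1 had a difference of -0.03 ± 0.17, Oas2 of -0.14 ± 0.19, Dhx58, which encodes the MDA5 helper LGP2, of -0.17 ± 0.17, and Eif2ak2, which encodes the kinase PKR, of -0.22 ± 0.20.

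All 4 transcription factors had lower means in null mice, and Irf7 and Irf9 passed. Irf7 amplifies type I interferon production. It had 97.7, 148 and 189.8 in TLR4 null ischemic against 207, 202 and 284 in wild-type ischemic kidneys, and 139.6, 127 and 155 in TLR4 null sham against 188, 215 and 213 in wild-type sham kidneys. The genotypes did not overlap within a surgery, and the difference was -0.57 ± 0.14 (adjusted p = 0.0469). Irf9, the DNA-binding subunit of the ISRE-binding complex, had 144, 209 and 190.4 in TLR4 null ischemic against 255, 235 and 306 in wild-type ischemic kidneys, and 227, 191 and 176 in TLR4 null sham against 293, 258 and 258 in wild-type sham kidneys. No null array reached the lowest wild-type array, and the difference was -0.48 ± 0.11 (adjusted p = 0.0346). Stat2, its partner, had 49.5, 63.2 and 88.2 in TLR4 null ischemic against 80.4, 82.9 and 119 in wild-type ischemic kidneys, and 84.9, 61.9 and 49.5 in TLR4 null sham against 58.9, 71.1 and 92.1 in wild-type sham kidneys. These values overlapped in both surgeries and the difference of -0.29 ± 0.18 (adjusted p = 0.551) did not pass.

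Of the 4 antigen processing genes, all lower in the mean, only Psmb8 passed. Psmb8, a catalytic subunit of the immunoproteasome, had 105, 60.2 and 76 in TLR4 null ischemic against 164, 133 and 201 in wild-type ischemic kidneys, and 127, 126 and 157 in TLR4 null sham against 165, 144 and 222 in wild-type sham kidneys. The ischemic ranges were separate and the sham ranges overlapped, with an averaged difference of -0.63 ± 0.15 (adjusted p = 0.0395). Psmb10, another catalytic subunit, had 185, 152 and 155 in TLR4 null ischemic against 229, 194 and 281 in wild-type ischemic kidneys, and 167, 160.5 and 201 in TLR4 null sham against 206, 245 and 247 in wild-type sham kidneys. Its groups did not overlap within a surgery, yet the difference of -0.42 ± 0.11 (adjusted p = 0.0634) did not pass. Psmb9, the third such subunit, differed by -0.29 ± 0.17 (adjusted p = 0.504), and Tap1, part of the peptide transporter, by -0.44 ± 0.17 (adjusted p = 0.24).

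In the ISG15 and ubiquitin group 4 of 5 members had a lower mean, and 1 passed. Parp9, an ADP-ribosyltransferase that works with the ligase Dtx3l, had 199, 119 and 215 in TLR4 null ischemic against 277, 286 and 322 in wild-type ischemic kidneys, and 178, 178 and 200.2 in TLR4 null sham against 258, 233 and 249 in wild-type sham kidneys. All 6 null arrays lay below all 6 wild-type arrays, with a difference of -0.55 ± 0.12 (adjusted p = 0.0296). Trim25, a ubiquitin ligase that acts on the sensor RIG-I, was the 1 member with no lower mean. It had 1034, 830.4 and 989 in TLR4 null ischemic against 1030.5, 914 and 849 in wild-type ischemic kidneys, and 1030.1, 1017 and 1096 in TLR4 null sham against 1019.9, 990.5 and 1089 in wild-type sham kidneys. These ranges overlapped, the difference was 0.02 ± 0.07 (adjusted p = 0.928), and its 3 probe sets were all slightly higher in null mice. Dtx3l differed by -0.11 ± 0.09 (adjusted p = 0.663) and Parp14 by -0.43 ± 0.18 (adjusted p = 0.293). Both remaining induced genes passed. Lgals3bp, a secreted binding protein of galectin 3, had 221, 254 and 235 in TLR4 null ischemic against 304, 447 and 446 in wild-type ischemic kidneys, and 348, 267 and 244 in TLR4 null sham against 464, 443 and 360.0 in wild-type sham kidneys. Its difference was -0.62 ± 0.12 (adjusted p = 0.0118), without overlap within a surgery. Ifi35, a cytoplasmic leucine zipper protein, had 641, 821 and 653 in TLR4 null ischemic against 876, 823 and 1082 in wild-type ischemic kidneys, and 607, 616 and 734 in TLR4 null sham against 886, 825 and 788 in wild-type sham kidneys. The difference of -0.37 ± 0.09 (adjusted p = 0.0406) passed for the gene. Fitted per probe set in limma, its 3 probe sets were all lower in null mice and none passed. Their adjusted p was 0.057 for the one that stood for the gene, and 0.538 and 0.712 for the others.

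**Figure D4:**
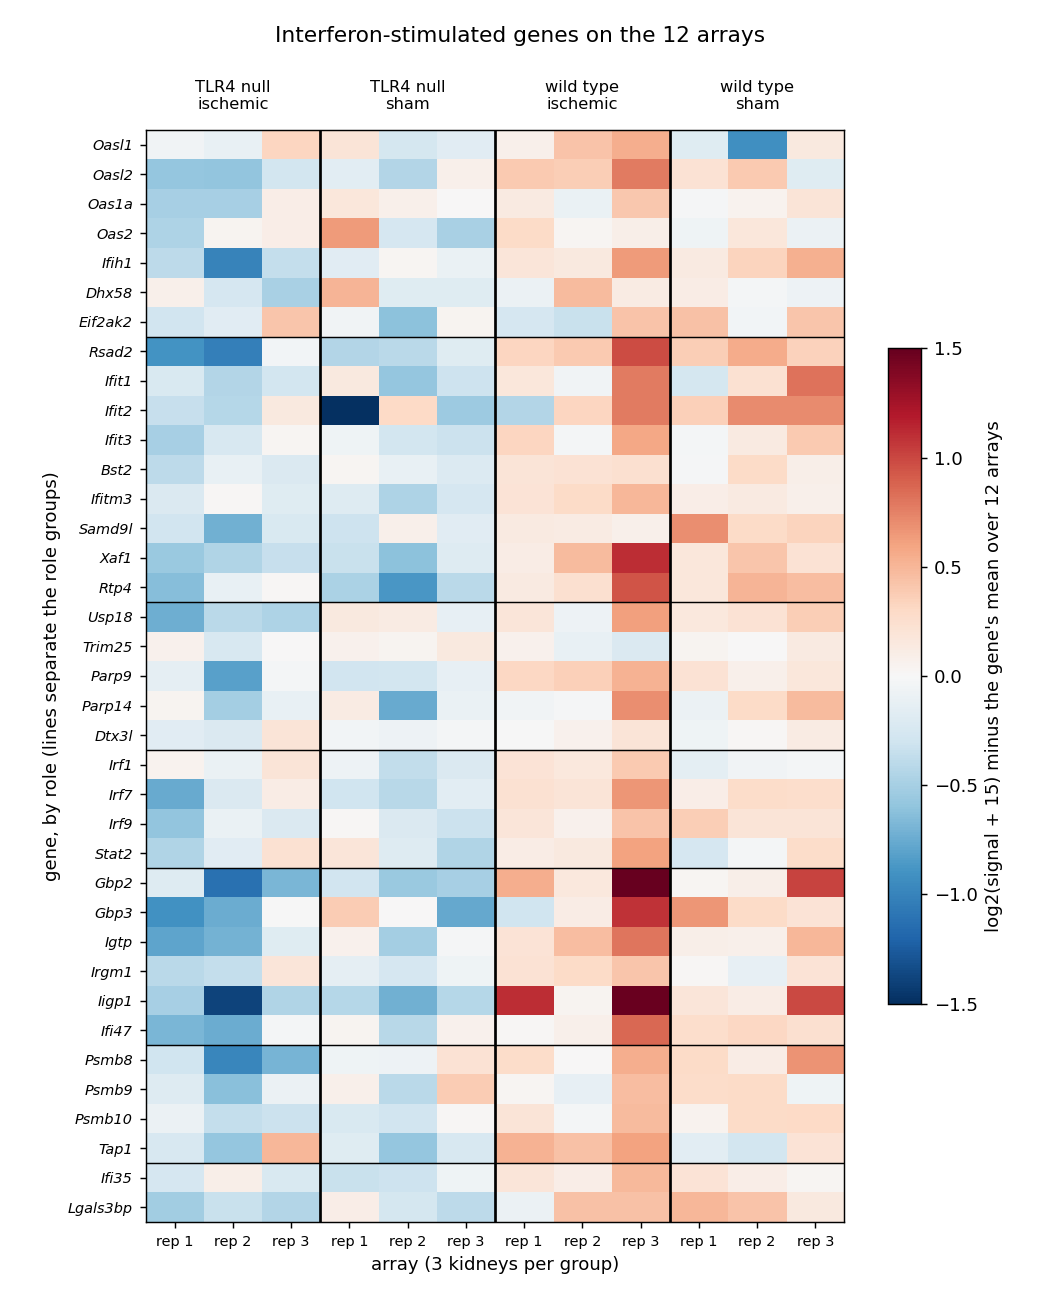
log2(signal + 15) of the 37 interferon-stimulated genes on the 12 arrays, as the difference from each gene's own mean, with genes in rows by role and arrays in columns by group (TLR4 null ischemic, TLR4 null sham, wild-type ischemic, wild-type sham). Blue, below the mean, fills most null columns, and wild-type ischemic replicate 3 is the most red, being the highest of its group for 32 of 37 members.

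The 16 lower genes lie on 11 chromosomes, 4 of them on chromosome 11, which holds 9 of the 37 measured members. None of the 37 lies on chromosome 4, which holds Tlr4, so the 16 could not include a gene of that chromosome. Of the 16, 13 had a RefSeq promoter, and 5 of these held the ISRE core, namely Rsad2, Gbp2, Igtp, Ifih1 and Ifitm3. The GAS letters occurred in 4 of the 13, Igtp, Ifitm3, Psmb8 and Ifi35. Among the other 21 members, 17 had a promoter, 8 of them with the ISRE core and 5 with the GAS letters.

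The number of genes that passed in the averaged comparison depended on some arrays and on the model. It was 8 without wild-type ischemic replicate 3, 9 without wild-type sham replicate 2 or TLR4 null sham replicate 2, and 10 without wild-type sham replicate 1 or wild-type sham replicate 3. Rsad2 and Ifitm3 passed in all 24 alternatives tried, and Iigp1 and Lgals3bp in 23. At the other end Irf9 passed in 11, Psmb8 in 10, Irf7 in 9 and Ifi35 in 8 of the 24. The count of 16 was 10 with no filter, 4 with a score of fat markers as a covariate and 3 without the trend of the variance prior. Fitted per probe set, 45 of the 49 probe sets that passed the filter were lower in null mice and 16 passed the test. Of all 30326 probe sets 0.956% passed as lower. The 16 probe sets include several of the same gene, such as those of Rsad2 and Iigp1, so they are not 16 genes.

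Few interferon-stimulated genes passed between ischemic and sham kidneys. In wild-type kidneys none of the 37 passed the limma test at this time point, whereas 19.6% of all genes did. At an unadjusted p under 0.05 there were 5 of 37 members (13.5%), a smaller share than the 31.5% of all genes. They were Oasl1, Irf1, Tap1 and Ifitm3 with higher and Samd9l with lower means in ischemic kidneys. The median difference was 0.10 for the members and -0.09 for all genes, and 1 array set the sign of the members' median. Without wild-type ischemic replicate 3 it was -0.03, with 21 of 37 members lower in place of 12. It was 0.18 without wild-type ischemic replicate 1 or 2 and 0.04 without wild-type sham replicate 1. It was 0.17 with median centring and 0.04 with the mean of probe sets. The count that passed was 2 without TLR4 null ischemic replicate 3, and 1 without wild-type ischemic replicate 2, wild-type sham replicate 3 or TLR4 null ischemic replicate 2. In TLR4 null kidneys 2 members passed as lower and none as higher, with 11.7% of all genes passing as lower.

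Usp18, which removes ISG15 from proteins and dampens the type I interferon receptor, was 1 of the 2. Its signals were 63.9, 84.3 and 80.8 in ischemic against 131, 128 and 106 in sham kidneys of TLR4 null mice, and 134, 110.0 and 187 in ischemic against 132, 138 and 155 in sham kidneys of wild-type mice. Ischemic and sham values were separate in null mice and overlapped in wild type, with a null response of -0.58 ± 0.19 (adjusted p = 0.0413) and a wild-type response of -0.01 ± 0.19. Psmb8 was the other, with a null response of -0.69 ± 0.21 (adjusted p = 0.03) and a wild-type response of -0.08 ± 0.21. In null mice its ischemic values of 105, 60.2 and 76 all lay below its sham values of 127, 126 and 157. The null response minus the wild-type response was -0.58 ± 0.27 (adjusted p = 0.783) for Usp18 and -0.61 ± 0.30 (adjusted p = 0.793) for Psmb8. A difference of responses was thus not shown for either. The count of 2 lower in TLR4 null kidneys was 0 without TLR4 null ischemic replicate 2 or TLR4 null sham replicate 2. It was 4 without TLR4 null ischemic replicate 3. It was 1 without wild-type ischemic replicate 1, TLR4 null ischemic replicate 1, TLR4 null sham replicate 1 or 3, or any 1 of the 3 wild-type sham arrays.

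Averaged over genotypes, 2 members passed as higher and 1 as lower after ischemia, against 13.7% of all genes as higher and 19.4% as lower. The members' median of 0.01 was -0.10 without wild-type ischemic replicate 3. Irf1, a factor induced early by type II interferon and by NF-kB, had 446, 399.7 and 493 in ischemic against 407, 330.2 and 368 in sham kidneys of TLR4 null mice, and 497, 483 and 567 in ischemic against 386, 416 and 422 in sham kidneys of wild-type mice. It was higher in ischemic kidneys by 0.30 ± 0.08 (adjusted p = 0.01). Its groups did not overlap in wild type, and they did in null mice. Ifitm3 was higher by 0.20 ± 0.07 (adjusted p = 0.0334) and Samd9l lower by -0.30 ± 0.10 (adjusted p = 0.0276), from the values given above. The higher count was 1 without wild-type ischemic replicate 3, wild-type sham replicate 1 or 2, or TLR4 null sham replicate 2. The lower count was 0 without wild-type sham replicate 1, TLR4 null ischemic replicate 2 or TLR4 null sham replicate 2, and 2 without wild-type ischemic replicate 3, wild-type sham replicate 2 or TLR4 null ischemic replicate 1.

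Whether the genotypes responded differently was tested by the interaction, the null response minus the wild-type response. None of the 37 members passed in limma, and 0% of all genes did. At an unadjusted p under 0.05 there were 2 of 37 members (5.4%), near the 6.4% of all genes. They were Oasl2 with -0.67 ± 0.28 (adjusted p = 0.718) and Igtp with -0.67 ± 0.28 (adjusted p = 0.719). The interaction was negative for 31 of 37 members, against 48.7% of all genes, with a median of -0.27 for the members and 0.01 for all genes. Without wild-type ischemic replicate 3 it was negative for 23 of 37, with a median of -0.10. The median was -0.14 without TLR4 null sham replicate 1 and -0.17 without TLR4 null ischemic replicate 1. A larger genotype difference after ischemia was therefore not shown for any member. The members' count was 0 without each array in turn.

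Single arrays carried part of these values. The mean log2(signal + 15) over the 37 members was 7.60, 7.53 and 7.88 in TLR4 null ischemic and 8.14, 8.13 and 8.57 in wild-type ischemic kidneys. It was 7.89, 7.68 and 7.80 in TLR4 null sham and 8.11, 8.14 and 8.27 in wild-type sham kidneys. All 6 null arrays thus lay below all 6 wild-type arrays. Replicate 3 was the highest of the wild-type ischemic arrays for 32 of 37 members, against 34.7% of all genes, and replicate 3 was the highest of the null ischemic arrays for 24 of 37, against 39.7%.

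Markers of other cells moved with genotype too. Fat cells beside the kidney can enter a sample, and all 4 measured fat markers (Adipoq, Fabp4, Retn and Cidec) had lower means in null mice in each surgery, none of which passed. None of the 4 was near 0 on every array. Their summed signal was 2377 to 9023 in TLR4 null ischemic and 4351 to 12754 in wild-type ischemic kidneys, and 2898 to 5537 in TLR4 null sham and 5276 to 8989 in wild-type sham kidneys. With the fat score as a covariate, 4 of the 16 members passed in the averaged comparison (Rsad2, Ifitm3, Iigp1 and Lgals3bp). None of the 7 passed in ischemic kidneys with this covariate. In the averaged comparison 36 of 37 were lower, with a median of -0.38. The fat score itself had a lower mean in null mice in each surgery. The fit therefore cannot separate fat from genotype, and the part of fat in the members' difference was not tested.

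**Figure D5:**
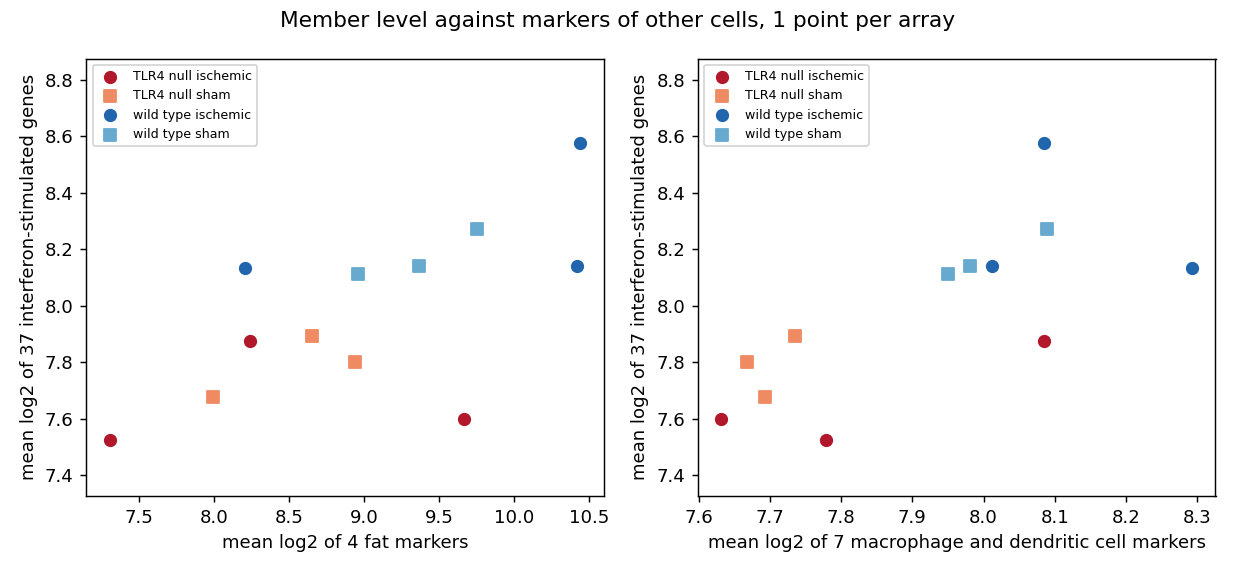
Mean log2(signal + 15) of the 37 interferon-stimulated genes (vertical) against that of 4 fat markers (left) and 7 macrophage and dendritic cell markers (right), 1 point per array, coloured by group. The 6 null arrays lie below the 6 wild-type arrays on the vertical axis in both panels, and fat signal varies widely within the ischemic groups, from 7.30 to 9.67 in null and from 8.20 to 10.44 in wild-type kidneys.

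All 7 macrophage and dendritic cell markers had a lower averaged mean in null mice, and Cd74, the invariant chain of antigen presentation and itself inducible by type II interferon, passed (-0.38 ± 0.08 (adjusted p = 0.0189)). Their summed signal was 2519 to 2998 in TLR4 null ischemic and 3147 to 3450.3 in wild-type ischemic kidneys, and 2745 to 2968 in TLR4 null sham and 3266 to 3750.3 in wild-type sham kidneys. Of 4 neutrophil markers, S100a8 and S100a9 passed as lower in null mice (-0.79 ± 0.15 (adjusted p = 0.0119) and -0.71 ± 0.15 (adjusted p = 0.0264)), and of 6 endothelial markers Tek and Emcn did (-0.48 ± 0.09 (adjusted p = 0.0133) and -0.38 ± 0.08 (adjusted p = 0.0298)). The other 2 neutrophil markers, Csf3r and Mmp9, had higher means in null mice (0.14 ± 0.25 and 0.15 ± 0.43), as did the endothelial markers Kdr and Flt1 (0.01 ± 0.08 and 0.06 ± 0.12), and none of these 4 passed. All 4 measured lymphocyte markers had higher averaged means in null mice, and none passed. Of 6 proximal tubule markers 5 had higher averaged means in null mice, with a median of 0.16, and none passed. Of 5 loop and collecting duct markers 3 had higher averaged means, with a median of 0.01, and none passed. The 3 plasmacytoid dendritic cell markers, which include the member Bst2, had lower averaged means and none passed. The part of these cells in the members' difference was not tested.

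Other genes of the interferon pathway were set beside the members, from lists of 70 measured genes. The lists hold genes that make, sense or dampen interferon signals, and also 30 other interferon-stimulated genes and 5 interferon-induced chemokines. Of all 70, 51 had a lower averaged mean in null mice and 4 passed as lower, none as higher, with a median of -0.13. The 30 other interferon-stimulated genes held 26 of the 51 and 2 of the 4. Of 10 interferon genes 2 were measured and neither passed in any comparison. Ifnb1, which encodes interferon beta, had 47.5, 43.9 and 55.5 in TLR4 null ischemic against 58.9, 43.7 and 60.7 in wild-type ischemic kidneys, and 106, 45.6 and 78.2 in TLR4 null sham against 64.9, 54.7 and 49.7 in wild-type sham kidneys. These signals were near the array medians, the genotypes overlapped in both surgeries, and the averaged difference was 0.10 ± 0.19 (adjusted p = 0.89). The other, Ifna1, belongs to a family of near-identical copies that its probes could share, and averaged 66.1 ± 37.2 in TLR4 null and 57.9 ± 31.9 in wild-type kidneys, a difference of 0.19 ± 0.37 (adjusted p = 0.885). Interferon protein was not measured.

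Of 9 receptor and kinase genes none passed between the genotypes, with a median of -0.03. Ifnar1, a subunit of the type I receptor, averaged 250.0 ± 28.4 in TLR4 null and 259.9 ± 50.2 in wild-type kidneys, a difference of -0.04 ± 0.12 (adjusted p = 0.93). Jak1, the kinase shared by the type I and type II receptors, had 1772, 1601 and 1942 in ischemic against 1167, 1189 and 1050.2 in sham kidneys of TLR4 null mice, and 2119, 1746 and 1773 in ischemic against 1053, 1071 and 1233 in sham kidneys of wild-type mice. Ischemic values were all above sham values in both genotypes, by 0.69 ± 0.07 (adjusted p = 3.7e-06) averaged, and the genotype difference was -0.03 ± 0.07. Il10rb, a receptor subunit shared by type III interferons and interleukin 10, had 575, 651 and 575 in ischemic against 587, 696 and 626 in sham kidneys of TLR4 null mice, and 783, 759.9 and 818 in ischemic against 583, 574 and 577 in sham kidneys of wild-type mice. It was higher after ischemia in wild type by 0.43 ± 0.09 (adjusted p = 0.00357), while its null response was -0.08 ± 0.09 and its interaction -0.51 ± 0.13 (adjusted p = 0.447). Its averaged response of 0.18 ± 0.07 (adjusted p = 0.0498) became -0.0047 when its probe sets were averaged.

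The 6 measured genes of the TLR4 and TRIF arm had higher means after ischemia in both genotypes. In the averaged comparison 4 of the 6 passed as higher, against 13.7% of all genes. The null response of Tbk1, however, turned under another choice of probe set. Tlr4 itself is among the 6, and its null response was 0.09 ± 0.44 on the brighter probe set. On the probe set with null signals of 0.901 to 3.38 it was 0.003 ± 0.32, so a response of Tlr4 in null mice was not shown. Cd14 and Ly96 encode the partners that present lipopolysaccharide to TLR4, and they were higher by 0.85 ± 0.11 (adjusted p = 3.07e-05) and 0.43 ± 0.14 (adjusted p = 0.0306). Irf3, the factor that starts type I interferon transcription, had 965, 877 and 804 in ischemic against 525, 602 and 562 in sham kidneys of TLR4 null mice, and 819, 725 and 768 in ischemic against 509, 519 and 576 in sham kidneys of wild-type mice. The ischemic values were separate from the sham values in both genotypes, with an averaged difference of 0.57 ± 0.07 (adjusted p = 1.4e-05). Tbk1, the kinase that activates IRF3, was higher by 0.25 ± 0.06 (adjusted p = 0.00533). Without probe sets of the suffix _x_at or _s_at, its averaged difference was 0.10 (adjusted p = 0.561) and its null response turned to -0.15 (adjusted p = 0.592), and with the mean of probe sets its averaged difference was 0.17 (adjusted p = 0.093). That of Irf3 was 0.33 (adjusted p = 0.111) without these suffixes. None of these 4 passed between the genotypes.

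Among 6 cytosolic sensors and adaptors, Ifi204 passed as lower in null mice. Ifi204, a DNA sensor of the interferon-inducible HIN family, had 41.2, 28.3 and 56.6 in TLR4 null ischemic against 97.9, 103 and 147 in wild-type ischemic kidneys, and 32.9, 27.2 and 53.4 in TLR4 null sham against 58.9, 70.9 and 68.9 in wild-type sham kidneys. The genotypes did not overlap, and the averaged difference was -0.93 ± 0.19 (adjusted p = 0.02). Mavs, the mitochondrial adaptor of MDA5, had 373, 547 and 298 in ischemic against 749, 687 and 660.4 in sham kidneys of TLR4 null mice, and 327, 496 and 514 in ischemic against 733, 629.6 and 588 in sham kidneys of wild-type mice. It was lower after ischemia, by -0.68 ± 0.14 (adjusted p = 0.00126) averaged, and its genotype difference was -0.02 ± 0.14.

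Of 5 further STAT and IRF factors, Stat3 passed as lower in null mice. Stat3, which acts downstream of interleukin 6 and its relatives, had 1326, 1427 and 1439 in TLR4 null ischemic against 1744, 1770.3 and 1999 in wild-type ischemic kidneys, and 739.8, 678 and 658 in TLR4 null sham against 935, 1022 and 931 in wild-type sham kidneys. The null values were below the wild-type values within each surgery, by -0.43 ± 0.06 (adjusted p = 0.00177) averaged, and it was higher after ischemia by 0.96 ± 0.06 (adjusted p = 1.73e-08). Irf5, which acts in TLR signalling of myeloid cells, had 230.2, 222 and 182 in ischemic against 132, 124 and 135 in sham kidneys of TLR4 null mice, and 127, 111 and 155 in ischemic against 165, 166 and 235 in sham kidneys of wild-type mice. Its ischemic values lay above sham in null and below sham in wild-type mice. The null response was 0.63 ± 0.17 (adjusted p = 0.014), the wild-type response -0.47 ± 0.17 (adjusted p = 0.0619) and the interaction 1.10 ± 0.24 (adjusted p = 0.321), so the difference of responses did not pass.

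Among 7 negative regulators, Socs3 and Ptpn2 passed as higher after ischemia and none passed between the genotypes. Socs3, an inhibitor of JAK kinases, had 1012, 1889 and 1078 in ischemic against 426, 202 and 262 in sham kidneys of TLR4 null mice, and 1596, 1728 and 2279.5 in ischemic against 287, 301 and 333 in sham kidneys of wild-type mice. The groups were separate in both genotypes, with an averaged difference of 2.32 ± 0.17 (adjusted p = 8.75e-08). Ptpn2, a phosphatase of STAT proteins, was higher by 0.98 ± 0.08 (adjusted p = 1.44e-07). Of 5 interferon-induced chemokines, Cxcl10 passed. Cxcl10, a ligand of the receptor CXCR3 on T cells, had 128, 190.4 and 226 in ischemic against 92.1, 75.6 and 57.2 in sham kidneys of TLR4 null mice, and 235, 257 and 291 in ischemic against 65.5, 116 and 185 in sham kidneys of wild-type mice. It was higher after ischemia by 1.10 ± 0.28 (adjusted p = 0.0112) in wild type and 1.11 ± 0.28 (adjusted p = 0.00971) in null mice, with a genotype difference of -0.52 ± 0.20 (adjusted p = 0.24).

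A list of 30 other measured interferon-stimulated genes showed a smaller difference in the same direction, with 26 lower averaged means in null mice, 2 that passed and a median of -0.25. B2m, the light chain of class I MHC, had 3652, 4693 and 4539.8 in TLR4 null ischemic against 5554, 6618 and 7314 in wild-type ischemic kidneys, and 4984, 5194 and 4887 in TLR4 null sham against 5669, 5944 and 5667 in wild-type sham kidneys. No null array reached the lowest wild-type array, and the difference was -0.40 ± 0.07 (adjusted p = 0.0123). Ifitm2, a relative of Ifitm3, differed by -0.40 ± 0.07 (adjusted p = 0.0118) and was lower after ischemia by -0.35 ± 0.07 (adjusted p = 0.00182). Ifitm1 was lower after ischemia by -1.16 ± 0.11 (adjusted p = 1.14e-06), while Ifitm3 was higher, so these 3 genes of 1 family on chromosome 7 differed in the sign of their response.

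Several of these 30 genes passed for ischemia alone. Slfn2, a regulator of T cell quiescence, was higher by 0.48 ± 0.11 (adjusted p = 0.00288), the antiviral zinc finger gene Zc3hav1 by 0.37 ± 0.12 (adjusted p = 0.0254), and Cd274, which encodes the checkpoint ligand PD-L1, by 0.94 ± 0.32 (adjusted p = 0.0324). Phf11d was lower by -0.62 ± 0.14 (adjusted p = 0.0027). Uba7, the activating enzyme for ISG15, had 73.6, 67.9 and 38.5 in ischemic against 186, 168 and 132 in sham kidneys of TLR4 null mice, and 96.1, 121 and 202 in ischemic against 177, 82.1 and 101 in sham kidneys of wild-type mice. It was lower after ischemia in null mice by -1.26 ± 0.29 (adjusted p = 0.00594), its wild-type response was 0.20 ± 0.29, and the interaction of -1.46 ± 0.41 (adjusted p = 0.52) did not pass.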

How the data were processed

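Total RNA of whole kidneys was hybridised as biotin-labelled cRNA to 12 one-colour arrays. The deposited table holds linear intensity, which the authors computed with MAS5 according to the submitters' processing notes. Neither the MAS5 version nor its scaling target is given in the sources used here, and the deposited scaling was kept. Of 45101 probe sets, 64 are controls. The platform annotation gave 34958 of them 1 gene, 932 several and 9160 none, and 34754 of the 34958 matched the Entrez gene table.

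Tests used log2(signal + 15), with 15 set near the 20th percentile of all signals. Dim probe sets were dropped unless 3 or more of the 12 arrays had them above the 40th percentile (30326 passed). The probe set with the highest mean stood for a gene (14322 genes). limma 3.58.1 in R 4.3.3 fitted a mean for each of the 4 groups over all 12 arrays, with lmFit and eBayes with a trend. Tests were two-sided with Benjamini-Hochberg adjustment over all genes. The fit was tested on simulated data. The number of arrays limits the precision.

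The members and lists were chosen with earlier results of these data known. Values on every array are given for members that passed in any comparison, and in each role group for those with the highest mean signal and the smallest interaction p. Pathway genes are named where they passed in any comparison or had the highest mean of their list. The other members are given by mean or difference, and Ifnar1 was named after its values were seen. Promoters were read from RefSeq (GRCm38.p6). Python 3.11.15, numpy 2.4.6, pandas 2.3.3 and matplotlib 3.10.9 were used for the counts and figures. Alternatives were quantile normalization, median centring, pseudocounts of 1 and 60, no filter or the 60th percentile, other choices of probe set, no trend, array weights, only the arrays compared, a replicate block, a fat covariate and leaving out each array.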

Additional observations from a re-analysis of the deposited data

How the results depend on the processing

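The direction of the genotype difference held under other scalings: 36 of 37 members were lower in the averaged comparison with median centring and 35 with quantile normalization. The 16 that passed there became 10 with no filter, 3 without the trend and 4 with the fat covariate, and 8 to 18 when 1 array was left out. The 7 in ischemic kidneys became 1 with no filter, 4 with the mean of probe sets, and 0 without the trend, with only the arrays compared or with the fat covariate, and ranged from 0 to 12 when 1 array was left out. The 0 in sham kidneys became 3 with array weights and 2 with only the arrays compared (0 to 1 without single arrays). For ischemia in wild type the 0 became 2 with quantile normalization, 3 with median centring, 1 with the 60th percentile filter or the mean of probe sets, and 2 with array weights, only the arrays compared or the replicate block (0 to 2 without single arrays). The 2 lower in null ischemia became 1 with median centring, a pseudocount of 60, the replicate block or the fat covariate, 0 with no filter or only the arrays compared, and 4 with array weights (0 to 4 without single arrays). Averaged over genotypes, the 2 higher became 4 with median centring and 1 without the trend (1 to 2 without single arrays), and the 1 lower became 0 with median centring or without the trend and 2 with the replicate block or the fat covariate (0 to 2). The members' interaction count was 0 in every alternative tried.

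Over all genes, the interaction count of 0 was 15 without TLR4 null ischemic replicate 3 (0 to 15). The 45 genes of the sham genotype comparison became 20 with median centring, 4 without the trend, 160 with array weights and 81 with only the arrays compared (2 to 61 without single arrays, 2 without wild-type sham replicate 1). The 94 of the ischemic one became 47 with no filter, 20 without the trend, 164 with array weights, 17 with only the arrays compared, 61 with the replicate block and 14 with the fat covariate (10 to 245, with 10 without wild-type ischemic replicate 3 and 245 without TLR4 null ischemic replicate 3). The 301 of the averaged one became 186 with median centring, 107 without the trend, 470 with array weights and 88 with the fat covariate (138 to 371, with 138 without wild-type sham replicate 2). Same-numbered arrays correlated at -0.06 to 0.10 in their deviations from the group means. Differently numbered arrays were not set beside them, so whether the numbers pair the kidneys was not settled. With the replicate block 15 members were lower in the averaged comparison and 7 in ischemic kidneys.

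Of 681 repeats of single member calls, 473 kept the call, 208 kept the direction only and 0 reversed. Of 1177 for pathway genes 1078 kept it, 97 kept the direction only and 2 reversed, Tbk1 in null ischemia at -0.15 without probe sets of the suffix _x_at or _s_at, and Il10rb in averaged ischemia at -0.0047 with the mean of probe sets. The cause of these changes was not tested. Precision is limited by the 3 arrays per group, and a member that missed the threshold is not shown to be alike in the groups.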

Other observations

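Genes beside the members on the chromosome or in the same cells gave further values. Cmpk2, a mitochondrial nucleotide kinase encoded next to Rsad2 on chromosome 12, averaged 188 ± 51.1 in TLR4 null and 289 ± 78.9 in wild-type kidneys (SD, n = 6 each). Its difference of -0.58 ± 0.17 did not pass in limma (adjusted p = 0.114), although Rsad2 did. The macrophage gene Lyz2, which encodes lysozyme, averaged 248 ± 43.5 in TLR4 null and 385 ± 109 in wild-type kidneys, a difference of -0.58 ± 0.16 (adjusted p = 0.0828). Both genes were chosen here after their values were seen.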
